A study of Mus musculus with 30 samples.

Results

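End-stage R6/2 hearts were compared with wild type (WT) hearts at 15 weeks of age. The 8 libraries, 4 R6/2 and 4 WT, were chosen by the age and genotype written in the headings of the count table, and they are 8 of 30 libraries in the whole series. The series compares hearts of the R6/2 and HdhQ150 mouse models of Huntington's disease with WT hearts before symptoms and at end stage, to ask which transcripts change with the disease. Each library was made from total RNA of the heart of 1 mouse. R6/2 mice were hemizygous for a transgene that carries a mutated exon 1 of human huntingtin under the human promoter, and the line was kept by backcrossing to (CBA x C57BL/6) F1 mice, so both groups share a mixed background. The labels name no treatment for either group. R6/2 and WT hearts of other mice, taken at 4 weeks of age before symptoms, were used in 1 comparison. HdhQ150 mice, used in another, were homozygous for an expanded CAG repeat knocked into their own Htt gene, and those hearts and their WT controls were taken at 22 months. Values are given over all 8 libraries and then without WT mouse 1 and WT mouse 2, which carried thymus transcripts.

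The heart keeps its own circadian clock. BMAL1, encoded by Arntl, pairs with CLOCK or NPAS2 and activates genes through E-boxes, among them the period and cryptochrome repressors that shut the pair off again and the PAR bZIP factors DBP, TEF and HLF that drive output genes. NR1D and ROR receptors act on Arntl itself. Chaperones of the HSP70, HSP90, HSP40 and HSP110 families keep proteins folded, and HSF1 induces them under protein stress. Fibroblasts, the main matrix-producing cells of the heart, secrete collagens, the enzymes that process them and the inhibitors that slow matrix breakdown.

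Library totals were 38217624 to 42770699 estimated counts in WT and 40073569 to 62127718 in R6/2 hearts. The WT libraries fell into pairs, with a Pearson r across genes of log2(CPM + 1) of 0.997 between mice 1 and 2, 0.994 between mice 3 and 4 and 0.975 to 0.977 between the pairs. For r, CPM was taken over the library total without TMM scaling. Elsewhere, and in all marker sums, CPM stands for counts scaled to library size by TMM unless stated otherwise. The 12 thymocyte markers summed to 1717 and 1426 CPM in WT mice 1 and 2. Their sums were 5.01 to 17.1 CPM in the other WT and 3.30 to 9.14 in R6/2 hearts. WT mice 1 and 2 were set apart by these transcripts, so no test of them is given. The airway and alveolar markers summed to 5675 CPM in R6/2 mouse 8, 824 in mouse 5 and 417 in mouse 7, but to 1.98 in mouse 6 and 0.669 to 23.3 in WT hearts. Ventricular cardiomyocyte markers were present in all 8 libraries, with sums of 41656 to 68354 CPM in WT and 38261 to 52957 in R6/2 hearts. Y-linked transcripts summed to 106 to 141 CPM and Xist was at 0.138 to 0.387 CPM in all 8 libraries, although the headings give 4 of the mice as female. The hour at which hearts were collected is not given in the sources used here. In bulk hearts, fewer cells of a type and less RNA per cell cannot be told apart.

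Of 15463 genes tested by the quasi-likelihood test of edgeR, 1209 were higher and 996 lower in R6/2 hearts when a call needed a change of 1.3 times or more and an adjusted p below 0.1. The calls made up 14.3% of the genes tested, 7.82% higher and 6.44% lower, and 4465 genes had an unadjusted p under 0.05. For 10.3% of genes all 4 R6/2 hearts lay above all 4 WT hearts, and for 8.15% all lay below. In the absence of WT mice 1 and 2, 6.69% of genes were called, 3.12% higher and 3.58% lower, and 2.48% and 1.97% of the genes tested were called higher and lower in both sets. The summed airway markers were highest in R6/2 mice 5, 7 and 8, but the groups overlapped because R6/2 mouse 6 lay inside the WT range. With these markers as a covariate 1.4% of genes were called, 216 in all, of which 213 were also called without it. The cause of this lower count was not tested. The median log2 fold change over all genes was -0.02, and 0.00 without mice 1 and 2. The lists that departed most from these shares were the circadian clock, heat shock proteins and chaperones, lipid metabolism, glucocorticoid and FoxO targets, and the extracellular matrix, while oxidative phosphorylation had no called gene. The lists were chosen with earlier results of these data known, so their shares are descriptions. List counts given below without WT mice 1 and 2, or with the airway covariate, stand beside 6.69% and 1.4% of all genes.

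**Figure D1:**
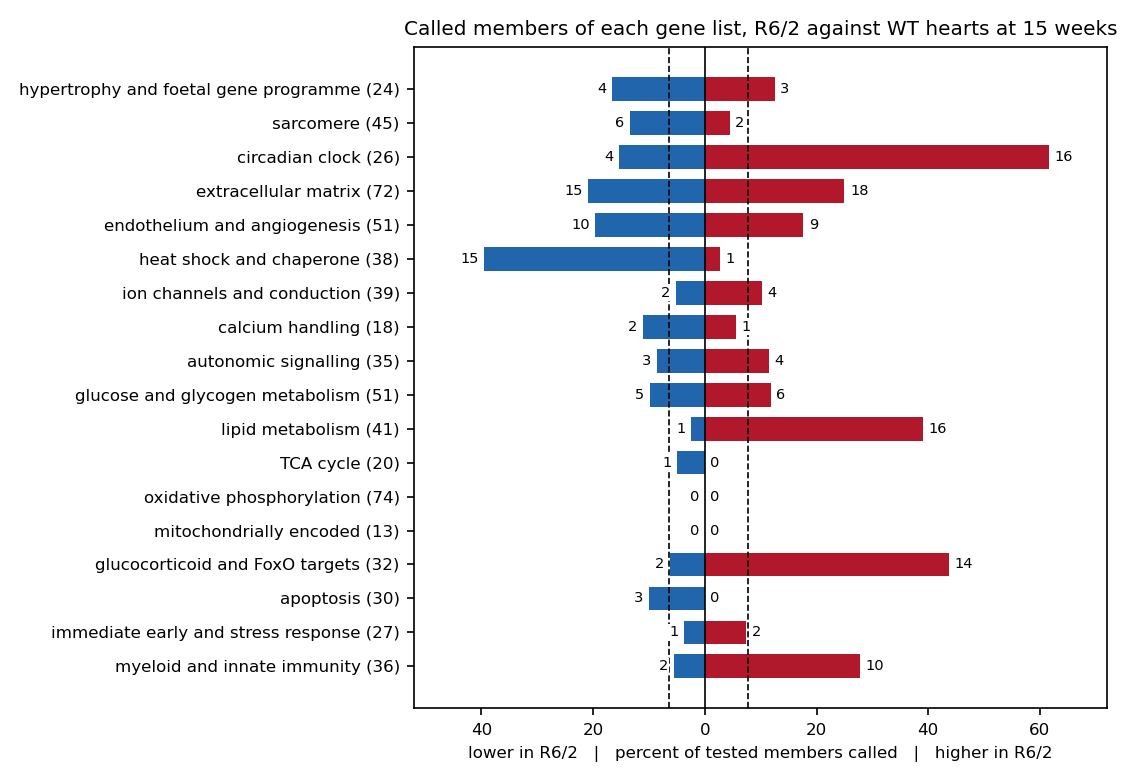
Share of the tested members of each gene list (number in brackets) called higher (right, red) or lower (left, blue) in R6/2 hearts, in percent, with the number called at the bar's end. Dashed lines mark the shares over all genes, 7.82% higher and 6.44% lower, and the clock list reached furthest right with 16 of 26 members higher while the heat shock list reached furthest left with 15 of 38 lower.

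Called clock genes moved in opposite directions in the activator and repressor arms of the loop. Of 26 clock genes, 16 rose and 4 fell in R6/2 hearts, 76.9% against 14.3% of all genes, with a median log2 fold change of 0.65. The activator Arntl was 5.88-fold lower on average, whereas the repressors Ciart, Per1, Per2, Per3 and Cry2 and the output factors Dbp, Tef and Hlf rose. Of the 26 genes, 22 had a promoter window in RefSeq (GRCm38.p6), which spans 250 bases before to 50 after a transcript start. The E-box CACGTG stood in 7 of their 27 windows, 25.9% against 7.15% of all 32851 windows, searched on both strands, and in 37.5% of the 16 windows of members that rose. The D-box TTATGNAA was found in 7.41% of the clock windows and in 3.38% of all, and the ROR element TAGGTCA in 7.41% and 2.61%. The E-box reads the same on both strands, and each motif was counted on its own. The windows of Ciart and Per1, which rose, and of Arntl, which fell, are shown because the activator acts through the first motif and the nuclear receptors through the last, and capitals mark the 3 E-boxes of Ciart, the 1 of Per1 and the ROR element of Arntl.
Ciart (chr3:95882179-95882478, minus strand): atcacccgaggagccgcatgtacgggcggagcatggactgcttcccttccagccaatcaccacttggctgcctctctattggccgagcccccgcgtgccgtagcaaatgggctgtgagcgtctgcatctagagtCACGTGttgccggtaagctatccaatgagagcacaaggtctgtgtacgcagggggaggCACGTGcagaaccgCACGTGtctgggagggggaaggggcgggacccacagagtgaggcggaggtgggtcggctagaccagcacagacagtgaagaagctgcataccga
Per1 (chr11:69098699-69098998, plus strand): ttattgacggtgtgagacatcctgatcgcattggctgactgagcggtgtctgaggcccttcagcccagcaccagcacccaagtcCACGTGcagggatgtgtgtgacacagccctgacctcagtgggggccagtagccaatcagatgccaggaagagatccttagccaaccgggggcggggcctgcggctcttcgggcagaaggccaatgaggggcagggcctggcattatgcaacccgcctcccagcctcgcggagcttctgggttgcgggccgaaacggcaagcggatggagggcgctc
Arntl (chr7:113207261-113207560, plus strand): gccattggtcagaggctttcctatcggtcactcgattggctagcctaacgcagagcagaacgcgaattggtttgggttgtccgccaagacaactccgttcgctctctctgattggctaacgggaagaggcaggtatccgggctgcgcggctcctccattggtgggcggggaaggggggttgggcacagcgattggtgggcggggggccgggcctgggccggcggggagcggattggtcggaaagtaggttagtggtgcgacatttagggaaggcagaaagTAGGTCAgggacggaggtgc
A match is a description of letters and not a binding site.

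Arntl (ENSMUSG00000055116) was at 20.9, 23.3, 20.9 and 13.1 CPM in WT mice 1 to 4 and at 2.44, 4.34, 3.56 and 2.99 CPM in R6/2 mice 5 to 8. Every R6/2 heart was below every WT heart, of which mouse 4 was the lowest. On the log2 scale it fell by 2.56 with a standard error of 0.236 (adjusted p = 0.00559 from edgeR), and by 2.37 without mice 1 and 2 (adjusted p = 0.0331). Its partners moved less. Npas2 fell by 0.93 on the log2 scale (adjusted p = 0.0465 from edgeR), but its call was lost without mouse 2, 5 or 7 (log2 fold changes -0.94 to -0.81, adjusted p of 0.110 to 0.116). Clock overlapped between groups, at 28.3 ± 7.03 CPM (SD, n = 4) in WT and 20.5 ± 2.31 in R6/2 hearts, and was not called over all 8 libraries (log2 fold change -0.46, adjusted p = 0.121 from edgeR), while without mice 1 and 2 it was called (log2 fold change -0.69, adjusted p = 0.0777).

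In the repressor arm 6 of 8 genes rose and 0 fell. Ciart, which binds and silences BMAL1 and whose window holds 3 E-boxes, was at 3.50, 2.72, 2.94 and 4.72 CPM in WT and 16.1, 16.0, 12.6 and 15.4 CPM in R6/2 hearts, 4.33-fold higher on average. The groups were far apart, and the rise was 2.12 on the log2 scale with a standard error of 0.191 (adjusted p = 0.00559 from edgeR). Per2 was at 12.1, 11.3, 15.4 and 11.7 CPM in WT and 46.1, 41.1, 26.7 and 50.5 CPM in R6/2 hearts, where mouse 7 was the lowest (log2 fold change 1.71, standard error 0.201, adjusted p = 0.00973 from edgeR). Per1, also a glucocorticoid target, stood at 36.3, 44.1, 40.3 and 59.8 CPM in WT and 85.0, 127, 129 and 151 CPM in R6/2 hearts. Its groups did not overlap, and it rose by 1.45 on the log2 scale with a standard error of 0.208 (adjusted p = 0.0136 from edgeR). Per3, Cry2 and Bhlhe41 rose by 1.02, 0.86 and 0.60 on the log2 scale with adjusted p of 0.0215, 0.0101 and 0.0335 from edgeR. Cry1 and Bhlhe40 did not pass, with log2 fold changes of -0.19 and -0.05, and their groups overlapped.

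All 4 PAR bZIP genes were called. Dbp, which activates genes through D-boxes, was at 51.9, 24.1, 24.9 and 65.6 CPM in WT and 147, 119, 154 and 123 CPM in R6/2 hearts. WT mice 1 and 4 stood above WT mice 2 and 3, and the groups still did not overlap (log2 fold change 1.70, standard error 0.330, adjusted p = 0.0284 from edgeR). Tef rose from 92.1 ± 16.4 to 208 ± 30.4 CPM (SD, n = 4 each) and Hlf from 17.5 ± 2.26 to 38.8 ± 9.91 CPM, log2 fold changes of 1.17 and 1.14 with adjusted p of 0.0120 and 0.0157 from edgeR. Nfil3, a repressor at the same D-boxes, went the other way, from 13.8 ± 4.80 to 6.22 ± 1.12 CPM (log2 fold change -1.15, adjusted p = 0.0393 from edgeR), but its call was lost without mouse 2 or 7 (log2 fold changes -1.13 to -1.13, adjusted p of 0.101 to 0.111). Among the nuclear receptors Nr1d2, a repressor of Arntl, rose from 62.6 ± 13.6 to 111 ± 5.72 CPM (adjusted p = 0.0241 from edgeR), whereas its relative Nr1d1 was at 123 ± 41.8 and 189 ± 25.9 CPM with overlapping groups (adjusted p = 0.120 from edgeR).

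Output genes tie the clock to metabolism and to the action potential. Klf15, which sets rhythms of nutrient use and repolarisation in the heart, was at 26.0, 32.8, 44.9 and 46.2 CPM in WT and 74.9, 85.8, 67.2 and 80.5 CPM in R6/2 hearts. The lowest R6/2 heart was above the highest WT heart (log2 fold change 1.04, standard error 0.186, adjusted p = 0.0231 from edgeR). Kcnh2, the channel of the rapid delayed rectifier current, rose from 92.1 ± 11.5 to 148 ± 16.4 CPM (SD, n = 4 each, adjusted p = 0.0214 from edgeR). Kcnip2 and Kcnd2, subunits of the transient outward current, overlapped between groups, with log2 fold changes of -0.24 and -0.22 (adjusted p of 0.453 and 0.528 from edgeR). When WT mice 1 and 2 were left out, 14 clock genes were higher and 4 lower, and 14 and 3 of these were the same genes as over all 8 libraries. With the airway covariate 7 were higher and 1 lower, and leaving out single libraries gave 12 to 17 higher and 1 to 4 lower. Without R6/2 mouse 8, the heart richest in airway transcripts, the counts were 13 and 3.

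**Figure D2:**
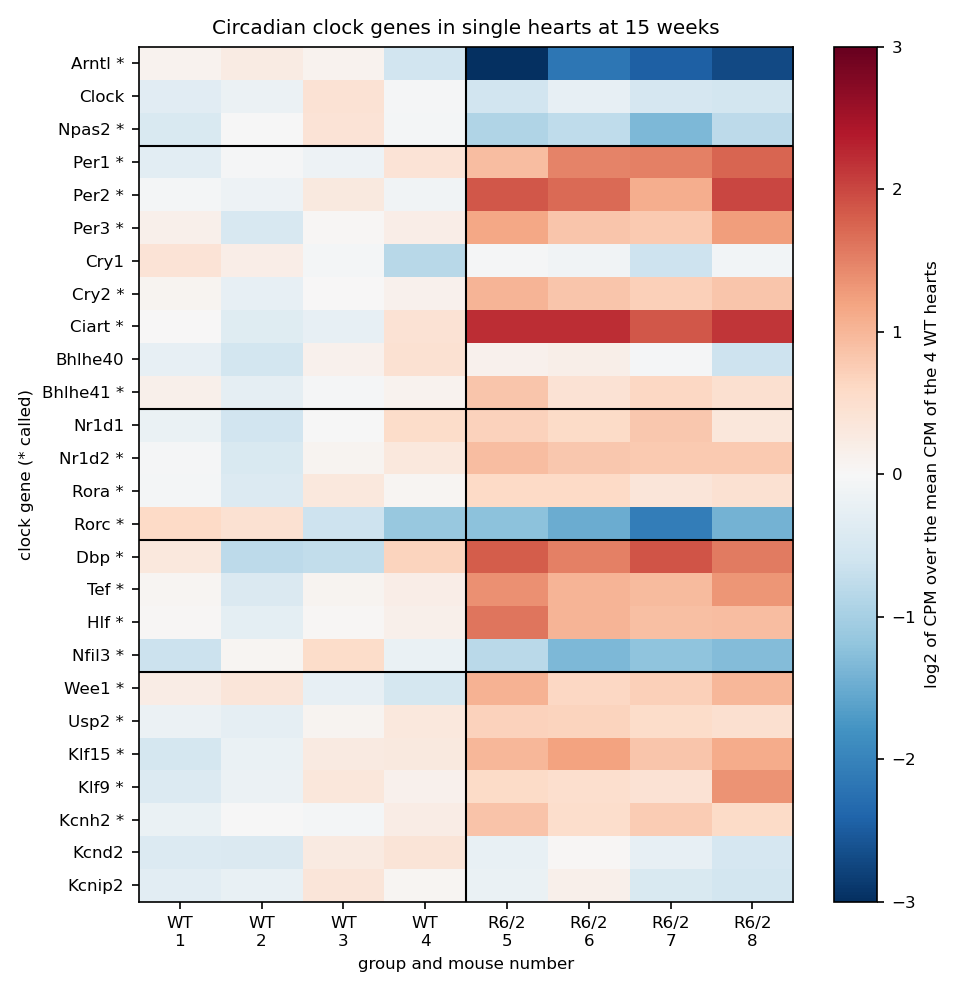
Each row is a clock gene, grouped from top to bottom as activators, repressors, nuclear receptors, PAR bZIP factors and outputs, and each column is 1 heart. Colour is the log2 ratio of CPM to the mean CPM of the 4 WT hearts, and stars mark called genes. Arntl is blue and Ciart, Per1, Per2 and Dbp are red in all 4 R6/2 hearts, whereas Cry1, Bhlhe40, Kcnd2 and Kcnip2 are pale.

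Chaperone transcripts were far more often lower than higher in R6/2 hearts, and most of the lower ones encode cytosolic proteins. Of 38 members 15 fell and 1 rose, 42.1% called against 14.3% of all genes. The median log2 fold change was -0.38 against -0.02 over all genes. The members that fell came from the HSP70 (3 of 6), HSP90 (2 of 2), HSP40 (2 of 4) and HSP110 (1 of 1) families and from their cochaperones (5 of 8), whereas 0 of 7 small heat shock proteins were called. Of the 38 genes, 30 had RefSeq promoter windows, 39 in all. The pair of inverted heat shock units GAANNTTC, which reads the same on both strands, stood in 14 of them, 35.9% against 7.86% of all windows, in 8 of the 16 windows of members that fell (50%) and in 27.3% of the 22 windows of members not called. The windows of Hsph1 and Dnaja1, which fell, are shown with this pair in capitals.
Hsph1 (chr5:149636266-149636565, minus strand): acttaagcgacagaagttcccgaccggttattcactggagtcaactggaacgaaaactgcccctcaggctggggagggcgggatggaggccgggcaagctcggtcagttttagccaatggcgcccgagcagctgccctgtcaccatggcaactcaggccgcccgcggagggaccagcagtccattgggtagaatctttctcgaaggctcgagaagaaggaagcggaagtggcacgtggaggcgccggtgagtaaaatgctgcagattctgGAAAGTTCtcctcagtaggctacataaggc
Dnaja1 (chr4:40722218-40722517, plus strand): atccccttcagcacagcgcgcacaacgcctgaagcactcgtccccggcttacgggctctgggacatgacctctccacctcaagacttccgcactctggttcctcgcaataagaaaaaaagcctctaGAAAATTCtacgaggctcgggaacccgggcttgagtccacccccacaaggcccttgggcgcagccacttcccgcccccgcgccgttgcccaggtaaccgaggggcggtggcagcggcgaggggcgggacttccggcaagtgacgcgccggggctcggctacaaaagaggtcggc
These letters describe the windows and were not measured for binding.

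Hsph1, the HSP110 that recharges HSP70, was at 56.7, 108, 138 and 53.8 CPM in WT and 29.0, 31.1, 24.8 and 24.8 CPM in R6/2 hearts. The 4 R6/2 hearts lay close together and below all WT hearts, which spread widely with mice 2 and 3 high (log2 fold change -1.70, standard error 0.306, adjusted p = 0.0237 from edgeR). Hsp90aa1, the inducible HSP90, was at 208, 327, 282 and 153 CPM in WT and 104, 103, 87.9 and 105 CPM in R6/2 hearts. It fell without overlap, by 1.28 on the log2 scale with a standard error of 0.219 (adjusted p = 0.0218 from edgeR). Dnaja1 and Dnajb1 are HSP40s that deliver clients to HSP70. Dnajb1 was at 32.7, 38.2, 39.3 and 28.8 CPM in WT and 17.8, 19.3, 18.0 and 17.0 CPM in R6/2 hearts, a tight pattern in both groups (log2 fold change -0.95, standard error 0.110, adjusted p = 0.00934 from edgeR). Dnaja1 fell from 142 ± 43.6 to 60.2 ± 4.33 CPM (SD, n = 4 each, log2 fold change -1.24, adjusted p = 0.0214 from edgeR). Without mice 1 and 2 the log2 fold changes of these 4 genes were -1.82, -1.14, -0.93 and -1.18, and each stayed called whichever single library was left out. With the airway covariate Hsph1 and Hsp90aa1 were not called, and 1 of the 2 HSP40 genes stayed called.

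The inducible HSP70 genes Hspa1a and Hspa1b are near-identical, so how their counts were divided between them is uncertain. Hspa1a was at 13.4, 17.5, 51.4 and 11.1 CPM in WT and 6.00, 4.82, 5.27 and 6.10 CPM in R6/2 hearts. Mouse 3 carried most of the WT mean, although all R6/2 hearts were below all WT hearts, and without mouse 3 the log2 fold change of -2.07 (adjusted p = 0.0452 from edgeR) became -1.32 (adjusted p = 0.0306). Without R6/2 mouse 5 or 7 its call was lost, with adjusted p of 0.114 and 0.119 from edgeR. The constitutive Hspa8, the most abundant HSP70 transcript per length among the 4 cytosolic members Hspa1a, Hspa1b, Hspa2 and Hspa8 at 1134 mean FPKM in WT and 674 in R6/2 hearts, fell by 0.68 on the log2 scale (adjusted p = 0.0637 from edgeR), but its call was lost without mouse 2, 5, 6, 7 or 8 (log2 fold changes -0.74 to -0.60, adjusted p of 0.119 to 0.159). Hsp90ab1, the constitutive HSP90, fell by 0.50 on the log2 scale (adjusted p = 0.0840 from edgeR), but its call was lost without mouse 2, 3, 5, 6, 7 or 8 (log2 fold changes -0.54 to -0.36, adjusted p of 0.127 to 0.182). Hspb1, the small heat shock protein HSP27, overlapped between groups at 186 ± 47.0 and 135 ± 5.82 CPM (adjusted p = 0.115 from edgeR). Among cochaperones, Stip1, which bridges HSP70 and HSP90, fell from 127 ± 24.8 to 74.1 ± 9.60 CPM and Chordc1, an HSP90 partner, from 44.6 ± 11.9 to 23.3 ± 2.44 CPM (SD, n = 4 each, adjusted p of 0.0322 and 0.0320 from edgeR). Bag3, the HSP70 exchange factor of cardiac autophagy, overlapped between groups at 270.1 ± 65.1 and 241 ± 7.96 CPM (adjusted p = 0.528 from edgeR), and was called without mice 1 and 2 (log2 fold change -0.42, adjusted p = 0.0886). Hsf1 was lower in every R6/2 heart by 0.24 on the log2 scale, under the fold limit (adjusted p = 0.0876 from edgeR).

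The member that rose was Herpud1, a membrane protein of the endoplasmic reticulum (ER) that serves the degradation of misfolded proteins. It was at 108, 129, 153 and 148 CPM in WT and 279, 220.4, 252 and 305 CPM in R6/2 hearts, without overlap (log2 fold change 0.97, standard error 0.141, adjusted p = 0.0137 from edgeR). The other 5 ER members had negative values, from -0.54 for Pdia4 to -0.11 for Canx. Without WT mice 1 and 2, 1 chaperone was higher and 20 lower, 1 and 13 of them the same genes, with a median of -0.48. With the airway covariate 1 was higher and 1 lower, and without R6/2 mouse 8 these counts were 1 and 8. Single libraries left out gave 6 to 18 lower.

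**Figure D3:**
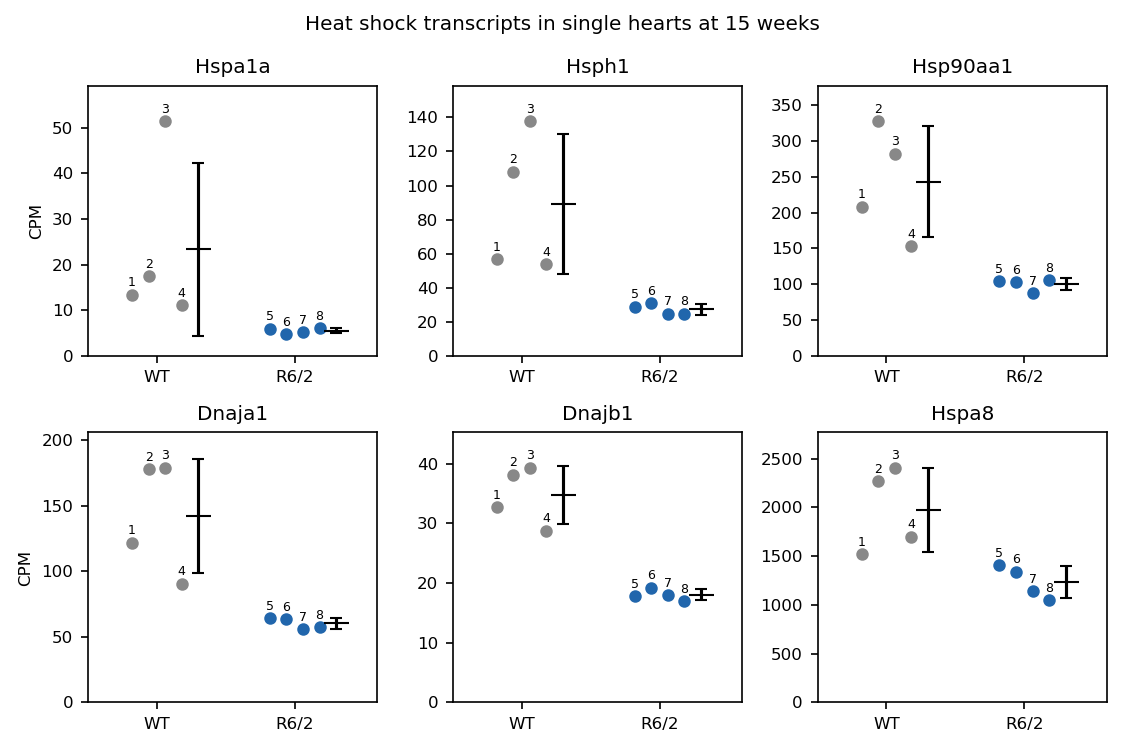
CPM of 6 heat shock transcripts in single hearts, WT in grey and R6/2 in blue, numbered by mouse, with the mean and SD of the 4 hearts beside them and each vertical axis starting at 0. R6/2 hearts lie low and close together, while WT mouse 3 stands above the other WT hearts in Hspa1a at 51.4 CPM.

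Matrix genes divided by role, with 18 of 72 members that rose and 15 that fell and a median log2 fold change of 0.06. Calls made up 45.8% of the list against 14.3% of all genes. Of 6 fibrillar collagens 4 fell, as did 3 of 5 basement membrane collagens and 2 of 3 collagen VI chains, and 0 collagens rose. Of 6 protease inhibitors 5 rose and 0 fell, and without WT mice 1 and 2 these counts were again 5 and 0. Of 6 small proteoglycans 4 rose and 0 fell, but 1 was higher without those mice, 1 with the airway covariate and 2 to 5 without single libraries. Fibroblast markers summed to 776 to 989 CPM in WT and 977 to 1242 in R6/2 hearts, which overlapped, with 4 of 7 called higher and 1 lower. Over the library total without TMM scaling these sums did not overlap, at 782 to 898 in WT and 1056 to 1193 in R6/2 hearts. Without Dcn, a marker that is also a matrix gene, the TMM-scaled sums were 426 to 529 CPM in WT and 414 to 541 in R6/2 hearts. Smooth muscle and pericyte markers overlapped too, at 598 to 901 CPM in WT and 777 to 1087 in R6/2 hearts, with 3 called higher. Without TMM scaling they did not overlap, at 674 to 812 in WT and 840 to 1055 in R6/2 hearts. The part of fibroblasts or of smooth muscle cells and pericytes in the matrix changes was not tested.

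Col3a1, a fibrillar collagen of the cardiac interstitium, was at 295, 329.9, 315 and 341 CPM in WT and 123, 154, 181 and 125 CPM in R6/2 hearts. WT hearts were close together and the highest R6/2 heart, mouse 7, was well below them (log2 fold change -1.14, standard error 0.137, adjusted p = 0.00996 from edgeR). Per length, Col3a1 had a mean of 62.5 FPKM in WT and 27.9 in R6/2 hearts, while Col1a2, which was not called, had 34.1 and 30.1. Col1a1 fell by 0.57 on the log2 scale (adjusted p = 0.0610 from edgeR), with R6/2 mouse 7 inside the WT range at 125 CPM, but its call was lost without mouse 2, 5, 6 or 8 (log2 fold changes -0.58 to -0.49, adjusted p of 0.134 to 0.153). Col5a3 fell from 47.5 ± 9.97 to 25.3 ± 3.72 CPM and Col4a1, the basement membrane chain, from 479 ± 77.3 to 265 ± 52.7 CPM (SD, n = 4 each, adjusted p of 0.0237 and 0.0336 from edgeR). In collagen VI, the log2 fold changes of Col6a1, Col6a2 and Col6a3 were -0.22, -0.43 and -0.50, of which the first was not called, and the call of Col6a3 was lost without mouse 5 (log2 fold change -0.48, adjusted p = 0.109), while the call of Col6a2 was lost without mouse 3, 5, 6 or 8 (log2 fold changes -0.43 to -0.36, adjusted p of 0.0753 to 0.129).
Serpinh1, the collagen-specific ER chaperone HSP47, was at 206, 321, 382 and 255 CPM in WT and 140.4, 147, 173 and 117 CPM in R6/2 hearts. All R6/2 hearts were below all WT hearts, of which mouse 1 was the lowest (log2 fold change -1.01, standard error 0.201, adjusted p = 0.0301 from edgeR). Pcolce2, an enhancer of procollagen cleavage, went up from 13.1 ± 3.80 to 25.1 ± 3.10 CPM (adjusted p = 0.0353 from edgeR). The lysyl oxidases Lox and Loxl2, which crosslink collagen, were not called, with log2 fold changes of 0.44 and -0.41.

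Timp4, a metalloproteinase inhibitor abundant in heart, was at 11.5, 20.3, 15.5 and 16.0 CPM in WT and 33.2, 48.2, 39.2 and 42.5 CPM in R6/2 hearts (log2 fold change 1.37, standard error 0.181, adjusted p = 0.0117 from edgeR). Timp3, Timp2 and Serpine2, an inhibitor of serine proteases, rose too, by 1.16, 0.66 and 1.0 on the log2 scale, whereas Timp1 was at 2.53 ± 0.808 and 2.11 ± 0.582 CPM with overlapping groups. Among proteases, Mmp3 rose from 3.26 ± 0.636 to 10.1 ± 2.35 CPM while Adamts4, an aggrecanase, fell from 1.58 ± 0.159 to 0.299 ± 0.112 CPM and Adam19 from 55.0 ± 21.4 to 20.1 ± 2.47 CPM (SD, n = 4 each, adjusted p of 0.0120, 0.0117 and 0.0226 from edgeR). Mmp2, Mmp9 and Mmp14 were not called.

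Decorin (Dcn), a proteoglycan that coats collagen fibrils, was at 371, 339, 387 and 459.6 CPM in WT and 705, 688, 701 and 563 CPM in R6/2 hearts. Mouse 8 was the lowest R6/2 heart and still above the highest WT heart (log2 fold change 0.77, standard error 0.126, adjusted p = 0.0183 from edgeR). Prelp rose by 0.67 on the log2 scale (adjusted p = 0.0251 from edgeR), and was not called without mice 1 and 2 (log2 fold change 0.58, adjusted p = 0.102). In elastic fibres, fibulin 5 (Fbln5), which assembles elastin, was at 23.9, 23.9, 24.1 and 29.6 CPM in WT and 45.9, 46.9, 49.5 and 49.6 CPM in R6/2 hearts, whereas fibrillin 1 (Fbn1), the microfibril scaffold, fell from 51.9 ± 8.02 to 33.2 ± 3.44 CPM (adjusted p of 0.00559 and 0.0302 from edgeR). Both patterns were free of overlap. Spp1, which encodes osteopontin, was low in WT hearts at 0.631, 0.363, 0.320 and 0.182 CPM and stood at 1.75, 1.26, 2.29 and 6.12 CPM in R6/2 hearts, with mouse 8 highest (log2 fold change 2.92). It rested on few counts in WT hearts and passed the count filter with the help of the R6/2 hearts, where it was high, so no test is given. Tgfb1, Tgfb3 and Tgfbr1 were not called, while the coreceptor Tgfbr3 rose from 35.7 ± 3.90 to 61.1 ± 7.03 CPM (adjusted p = 0.0135 from edgeR). Without WT mice 1 and 2, 12 matrix genes were higher and 18 lower, 12 and 14 of them the same genes, and with the airway covariate 10 were higher and 4 lower.

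**Figure D4:**
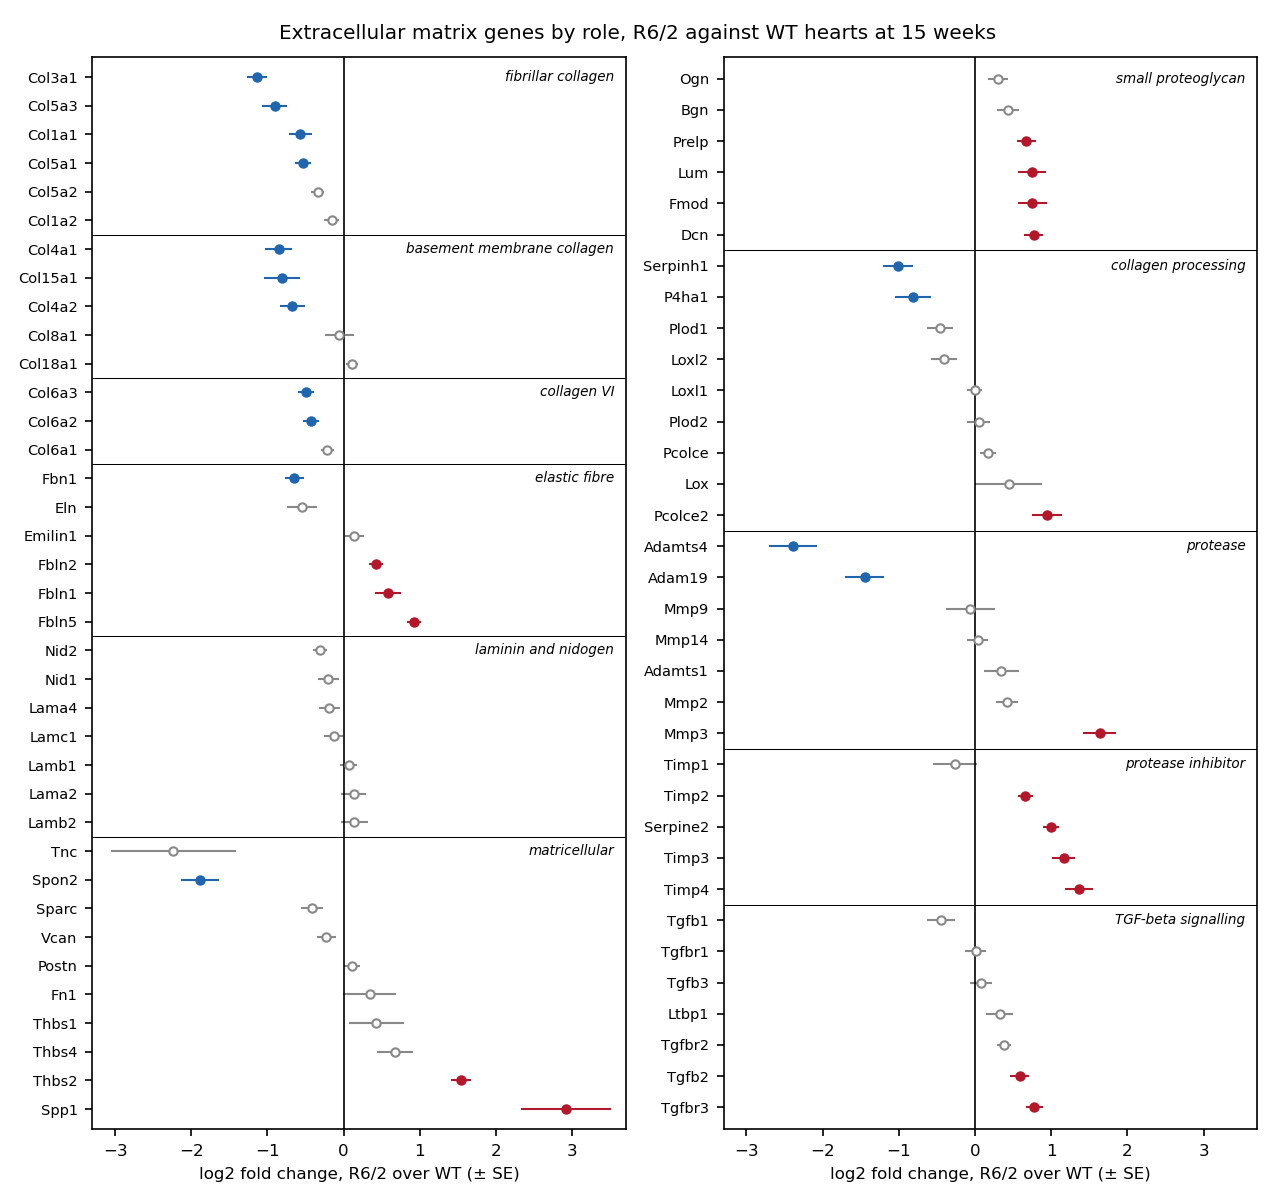
Log2 fold change (R6/2 over WT, ± standard error) of 71 of the 72 matrix genes, split by role, with called genes filled (red higher, blue lower) and others open. The 3 collagen classes at upper left hold filled points on the left of 0 alone, and the protease inhibitors other than Timp1 lie on the right.

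Endothelial genes changed in both directions, and both genes of the apelin pair were lower. Of 51 members 9 rose and 10 fell, 37.3% against 14.3% of all genes, with a median log2 fold change of 0.13. The endothelial markers themselves overlapped, at 635 to 920.3 CPM in WT and 764 to 921 in R6/2 hearts, and 0 of 6 were called. Aplnr, the apelin receptor, was at 52.2, 39.7, 62.4 and 58.3 CPM in WT and 15.4, 17.2, 18.9 and 9.51 CPM in R6/2 hearts. Apln, its peptide ligand, was at 13.0, 13.1, 23.4 and 19.8 CPM in WT and 2.07, 5.80, 3.32 and 3.89 CPM in R6/2 hearts. Neither gene overlapped between groups, and the log2 fold changes were -1.80 and -2.20 (standard errors 0.227 and 0.333, adjusted p of 0.0108 and 0.0144 from edgeR). Plxnd1, the semaphorin receptor of endothelial guidance, fell from 191 ± 21.6 to 92.1 ± 9.15 CPM and Vash1, an endothelium-derived inhibitor of angiogenesis, from 28.7 ± 5.63 to 14.1 ± 1.79 CPM (SD, n = 4 each, adjusted p of 0.00678 and 0.0142 from edgeR). Transcription factors parted. Meox1 and Bcl6b fell by 1.07 and 1.04 on the log2 scale, and Foxc1 and the venous factor Nr2f2 rose by 1.17 and 0.84. In the VEGF system 0 of 8 genes rose and 1 fell. Vegfa, the main growth factor of the system, was at 256, 305, 560.1 and 372 CPM against 234, 246, 233 and 245 CPM in R6/2 hearts, without overlap but with mouse 3 far above the other WT hearts. It was not called over all 8 libraries and was called without mice 1 and 2 (log2 fold changes -0.64 and -0.97, adjusted p of 0.105 and 0.0470 from edgeR). Without those mice 6 members were higher and 13 lower, 5 and 9 of them the same genes, and with the airway covariate 2 and 4.

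Genes of lipid use were more often higher than lower in R6/2 hearts. Of 41 members 16 rose and 1 fell, 41.5% against 14.3% of all genes, with a median log2 fold change of 0.31. Those that rose lay at entry, storage and mitochondrial overflow, with 3 of 6 uptake genes, 5 of 7 lipid storage genes and 4 of 4 thioesterase and uncoupling genes, but 1 of 10 beta oxidation enzymes. Of the 4 thioesterase and uncoupling genes, 1 was called without WT mice 1 and 2, which was Ucp3, and 1 with the airway covariate, and Acot1 and Ucp2 lay just inside the limit over all 8 libraries (adjusted p of 0.0988 and 0.0977 from edgeR), with the calls lost in 6 and 7 of the 8 omissions of single libraries. Adipocyte markers overlapped between groups, at 13.5 to 128 CPM in WT and 37.9 to 82.1 in R6/2 hearts. Ucp3, a mitochondrial carrier induced by fatty acids, was at 11.5, 9.19, 9.37 and 12.8 CPM in WT and 29.5, 33.4, 64.8 and 76.4 CPM in R6/2 hearts. The groups did not overlap, and R6/2 mice 7 and 8 were above mice 5 and 6 (log2 fold change 2.25, standard error 0.322, adjusted p = 0.0136 from edgeR). Angptl4, an inhibitor of lipoprotein lipase, was at 5.94, 5.75, 2.42 and 3.53 CPM in WT and 14.2, 12.7, 27.7 and 48.7 CPM in R6/2 hearts, with the same split (log2 fold change 2.55, standard error 0.493, adjusted p = 0.0284 from edgeR). Cpt1a, which gates fatty acid entry into mitochondria, rose from 32.7 ± 1.34 to 63.5 ± 14.2 CPM and Lipe, the hormone-sensitive lipase, from 49.2 ± 10.6 to 107 ± 22.0 CPM (SD, n = 4 each, adjusted p of 0.0138 and 0.0222 from edgeR). Gpihbp1, the capillary anchor of lipoprotein lipase, rose by 0.93 on the log2 scale (adjusted p = 0.0205 from edgeR). The fatty acid sensor Ppara was the member that fell, by 1.53 on the log2 scale (adjusted p = 0.0917 from edgeR), with WT mouse 3 at 21.2 CPM against 4.81 to 5.76 in the other WT hearts, and without mouse 3 the value was -0.71 (adjusted p = 0.0571), and its call was lost without mouse 1, 2, 5, 6, 7 or 8 (log2 fold changes -1.75 to -1.47, adjusted p of 0.123 to 0.199). Over the other 6 libraries, without WT mice 1 and 2, 10 lipid genes were higher and 2 lower, 9 and 1 of them the same genes. With the airway covariate 4 were higher and 0 lower, and single libraries left out gave 8 to 24 higher and 0 to 1 lower.

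Glucose genes showed no common direction, with 6 of 51 higher, 5 lower and a median of -0.02, and 0 of 14 glycolytic enzymes were called. Calls made up 21.6% of the glucose list against 14.3% of all genes. Txnip, an arrestin that limits glucose uptake and is induced by glucose through ChREBP, was at 233, 259, 224 and 193 CPM in WT and 802, 658, 778 and 1179.8 CPM in R6/2 hearts. The groups were far apart (log2 fold change 1.91, standard error 0.192, adjusted p = 0.00653 from edgeR). Mlxipl, which encodes ChREBP, was at 30.5, 43.6, 37.7 and 40.6 CPM in WT and 20.5, 20.3, 15.2 and 20.1 CPM in R6/2 hearts, so it moved opposite to Txnip (log2 fold change -1.0, standard error 0.139, adjusted p = 0.0130 from edgeR). In insulin signalling, Pik3ip1, an inhibitor of PI3 kinase, rose from 36.6 ± 1.99 to 60.2 ± 7.59 CPM and its regulatory subunit Pik3r1 from 72.2 ± 8.05 to 116 ± 15.1 CPM (SD, n = 4 each, adjusted p of 0.0130 and 0.0231 from edgeR). Ogdhl, the oxoglutarate dehydrogenase-like enzyme, was the 1 of 20 TCA cycle genes called, at 89.6, 123, 157 and 146 CPM in WT and 44.9, 31.9, 29.9 and 53.9 CPM in R6/2 hearts (log2 fold change -1.68, standard error 0.239, adjusted p = 0.0135 from edgeR). None of 74 nuclear oxidative phosphorylation genes and none of 13 mitochondrially encoded genes passed edgeR, and 1 and 0 of them had an unadjusted p under 0.05. Their medians were 0.03 and 0.06 over all 8 libraries and -0.19 and -0.18 without mice 1 and 2, when 1 oxidative phosphorylation gene was lower, and DESeq2 called 0 higher and 0 lower of the former and 0 and 0 of the latter list. With the summed thymocyte markers as a covariate 5 and 2 genes of these lists were lower, at medians of -0.23 and -0.20.

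Targets of the glucocorticoid receptor and of FoxO rose more often than they fell. Of 32 members 14 rose and 2 fell, 50% against 14.3% of all genes, with a median log2 fold change of 0.56. All 13 glucocorticoid targets had positive values, with 9 called. Without WT mice 1 and 2 that number was 5, of which 4 were the same genes, and with the airway covariate it was 2. Members that are also clock genes, Per1, Klf15 and Klf9, are counted in both lists. Zbtb16, a zinc finger target of glucocorticoids, was at 8.22, 15.5, 24.0 and 9.97 CPM in WT and 59.4, 45.5, 37.8 and 84.8 CPM in R6/2 hearts. Tsc22d3, which encodes the glucocorticoid-induced leucine zipper GILZ, was at 54.2, 69.6, 69.9 and 75.3 CPM in WT and 88.0, 139.8, 146 and 201 CPM in R6/2 hearts, where mouse 5 was the lowest. The groups did not overlap in either gene, and the log2 fold changes were 1.98 and 1.10 (adjusted p of 0.0280 and 0.0344 from edgeR), although Tsc22d3 was not called without WT mice 1 and 2 (adjusted p = 0.126). Cited2, a transcriptional coregulator and FoxO target, was at 22.1, 21.6, 19.1 and 27.3 CPM in WT and 58.9, 54.9, 69.1 and 58.4 CPM in R6/2 hearts (log2 fold change 1.42, standard error 0.124, adjusted p = 0.00559 from edgeR). Fkbp5, a classical glucocorticoid target, split the WT hearts instead, at 62.4, 63.9, 10.3 and 13.5 CPM in WT and 43.8, 35.9, 29.6 and 83.8 CPM in R6/2 hearts. WT mice 1 and 2 exceeded 3 of 4 R6/2 hearts and mice 3 and 4 were below all of them, so the gene was not called over all 8 libraries (log2 fold change 0.36, adjusted p = 0.738 from edgeR) and was called without mice 1 and 2 (log2 fold change 2.00, adjusted p = 0.0759). Of the 5 atrophy ligases, Fbxo31 alone was called, rising from 24.1 ± 5.02 to 42.5 ± 3.45 CPM, while Trim63 and Fbxo32, the muscle ligases MuRF1 and atrogin-1, had log2 fold changes of 0.18 and 0.20 (adjusted p of 0.655 and 0.702 from edgeR). Bcl6, a FoxO target and repressor, fell from 29.2 ± 3.39 to 16.1 ± 2.22 CPM (adjusted p = 0.0137 from edgeR). Without WT mice 1 and 2, 9 members were higher and 2 lower, 8 and 1 of them the same genes, and with the airway covariate 5 and 1.

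In the foetal gene programme of the stressed heart 3 of 24 members rose and 4 fell, 29.2% of the list against 14.3% of all genes, and without WT mice 1 and 2 the counts were 1 and 8, with 1 and 4 the same genes. The natriuretic peptide genes Nppa and Nppb, secreted under wall stretch, were not called in either fit. Nppa was at 1279.6, 1290.3, 1769 and 2018 CPM in WT and 1649, 1915, 1491 and 1357 CPM in R6/2 hearts, and Nppb at 124, 65.3, 191 and 120.4 CPM and 51.2, 132, 18.5 and 36.1 CPM. Both overlapped between groups (log2 fold changes 0.01 and -1.08, adjusted p of 0.973 and 0.247 from edgeR). Myh6, Myh7, Fhl2 and Vgll4 were not called, at log2 fold changes of -0.36, -0.05, 0.11 and -0.24 (adjusted p of 0.412, 0.949, 0.802 and 0.179 from edgeR), and Fhl1, a LIM protein of the stretched sarcomere, rose by 0.47 (adjusted p = 0.0523), but its call was lost without mouse 1, 2, 5, 6, 7 or 8 (log2 fold changes 0.38 to 0.50, adjusted p of 0.107 to 0.129). In the fit without WT mice 1 and 2, 2 of the 3 myosin heavy chains were lower, Myh6, the fast cardiac isoform, at -0.69 and Myh7b at -0.66 on the log2 scale (adjusted p of 0.0918 and 0.0537 from edgeR), while Myh7 was at -0.49 (adjusted p = 0.510). Bmp10, a growth factor of atrial and trabecular myocardium, was at 29.3, 26.0, 28.8 and 25.4 CPM in WT and 9.11, 13.8, 8.54 and 10.1 CPM in R6/2 hearts, with narrow groups far apart (log2 fold change -1.40, standard error 0.157, adjusted p = 0.00789 from edgeR). Atrial cardiomyocyte markers summed to 2348 to 3689 CPM in WT and 2471 to 3357 in R6/2 hearts, with 1 of 7 called lower. Ankrd23, a stretch-responsive partner of titin, fell from 355 ± 85.4 to 178 ± 32.0 CPM (SD, n = 4 each, adjusted p = 0.0293 from edgeR), and with Acta1, the skeletal actin of the foetal heart, it was among 6 sarcomere genes that fell against 2 that rose of 45. The sarcomere list had 17.8% of its members called against 14.3% of all genes, and it moved with WT mice 1 and 2. Its median was -0.07 with them and -0.35 without, when 0 were higher and 17 lower, 6 of them among the calls over all 8 libraries. Ccn2, the connective tissue growth factor, rose by 1.01 on the log2 scale (adjusted p = 0.0393 from edgeR), but its call was lost without mouse 2 (log2 fold change 0.92, adjusted p = 0.108).

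Among genes of rhythm and conduction, 4 of 39 channel and junction genes rose and 2 fell, 15.4% of the list against 14.3% of all genes, and 5 were higher and 4 lower without WT mice 1 and 2. Hcn2, a pacemaker channel of the funny current, was at 16.0, 15.9, 26.7 and 19.8 CPM in WT and 4.67, 4.71, 5.48 and 5.21 CPM in R6/2 hearts, 3.90-fold lower on average. R6/2 hearts lay close together and below every WT heart (log2 fold change -1.96, standard error 0.182, adjusted p = 0.00559 from edgeR, and -2.23 without mice 1 and 2). Hcn4, the main channel of the sinus node, was not called, at a log2 fold change of -0.30 (adjusted p = 0.307 from edgeR). Kcnv2, a modifier subunit of KV2 channels, rose from 7.63 ± 2.20 to 16.0 ± 1.24 CPM, Dsg2, the desmoglein of intercalated discs, from 58.9 ± 12.9 to 106 ± 8.51 CPM and Gjc1, which encodes connexin 45, from 15.2 ± 2.62 to 24.2 ± 2.35 CPM (SD, n = 4 each, adjusted p of 0.0241, 0.0246 and 0.0334 from edgeR). Gja1, the connexin 43 of working myocardium, was not called (463 ± 109.9 and 321 ± 82.8 CPM, adjusted p = 0.181 from edgeR). Of 18 calcium handling genes 1 rose and 2 fell, 16.7% against 14.3% of all genes.
Among autonomic genes 4 of 35 rose and 3 fell, 20% against 14.3% of all genes. Adora1, the adenosine receptor that slows the heart, was at 8.09, 11.3, 10.1 and 12.4 CPM in WT and 23.0, 21.0, 26.6 and 24.3 CPM in R6/2 hearts (log2 fold change 1.18, standard error 0.145, adjusted p = 0.0103 from edgeR). Gnb3, a G protein beta subunit, fell from 11.7 ± 3.56 to 3.34 ± 1.37 CPM and Rgs2, which shortens G protein signals, rose from 26.4 ± 6.86 to 57.4 ± 14.2 CPM (adjusted p of 0.0230 and 0.0334 from edgeR), though Rgs2 was not called without WT mice 1 and 2 (adjusted p = 0.126). The GDNF receptor pair parted, with the coreceptor Gfra1 at 7.85, 5.67, 5.62 and 6.51 CPM in WT and 10.9, 11.3, 12.3 and 12.3 CPM in R6/2 hearts and the kinase Ret at 6.79, 8.89, 14.5 and 8.51 CPM and 3.84, 3.12, 3.74 and 2.53 CPM. Gfra1 was above and Ret below the WT range in every R6/2 heart (log2 fold changes 0.87 and -1.55, adjusted p of 0.0151 and 0.0191 from edgeR). The 5 adrenergic receptor genes and the muscarinic receptor Chrm2 were not called, and Th and Chat, enzymes of the transmitters, were below the low-count filter. Bdnf, a neurotrophin, was at 3.95 ± 1.31 CPM in WT and 3.45 ± 1.22 in R6/2 hearts (adjusted p = 0.719 from edgeR, not called).

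Innate immune genes rose more often than they fell, 10 against 2 of 36, with a median log2 fold change of 0.26. Macrophage markers overlapped at 119.9 to 166 CPM in WT and 138 to 171 in R6/2 hearts. Calls made up 33.3% of the innate immune list against 14.3% of all genes. Without WT mice 1 and 2 the counts were 8 and 1, of which 7 and 1 were the same genes, and with the airway covariate they were 5 and 0. Ifitm1, an interferon-inducible membrane protein, was at 1.11, 1.13, 1.46 and 1.71 CPM in WT and 10.2, 7.37, 9.17 and 13.3 CPM in R6/2 hearts, 7.40-fold higher on average (log2 fold change 2.89, standard error 0.235, adjusted p = 0.00559 from edgeR). Of 12 interferon response genes 2 were called, 16.7% against 14.3% of all genes, the other being Ifitm3, which overlapped between groups. Ccl11, the eosinophil chemokine eotaxin, was at 3.78, 5.39, 3.72 and 3.27 CPM in WT and 13.2, 8.74, 14.8 and 11.4 CPM in R6/2 hearts (log2 fold change 1.57, standard error 0.213, adjusted p = 0.0120 from edgeR). Serping1, an inhibitor of complement, rose from 106 ± 21.4 to 202 ± 13.2 CPM (SD, n = 4 each, adjusted p = 0.0137 from edgeR). Il33, an alarmin, rose by 1.5 on the log2 scale (adjusted p = 0.0192 from edgeR). Its highest value was 27.0 CPM in R6/2 mouse 8, the heart richest in airway transcripts, and their part in it was not tested. Of 30 apoptosis genes 0 rose and 3 fell, 10% against 14.3% of all genes, and the 7 effectors were not called. Tnfrsf12a, the TWEAK receptor, fell from 47.8 ± 4.75 to 24.5 ± 5.29 CPM and the pore former Bak1 from 17.6 ± 1.13 to 12.5 ± 1.10 CPM (adjusted p of 0.0168 and 0.0284 from edgeR). Of 27 immediate early and ATF4 pathway genes 2 rose and 1 fell, 11.1% against 14.3% of all genes.

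Several of the genes with the smallest adjusted p lie outside these lists. Dixdc1, a positive regulator of Wnt signalling, was at 4.52, 5.24, 4.22 and 4.59 CPM in WT and 16.1, 15.2, 15.8 and 11.9 CPM in R6/2 hearts. Adh1, an alcohol and retinol dehydrogenase, was at 5.79, 8.23, 5.91 and 6.59 CPM in WT and 22.4, 21.0, 16.9 and 25.1 CPM in R6/2 hearts. Both rose without overlap, by 1.67 and 1.69 on the log2 scale (standard errors 0.132 and 0.162, adjusted p of 0.00559 and 0.00559 from edgeR). Fzd8, a Wnt receptor, and Ephx1, the microsomal epoxide hydrolase, rose by 1.06 and 1.07 (adjusted p of 0.00559 and 0.00653 from edgeR). Trp53i11, a p53-inducible transcript, was at 88.4, 88.9, 69.4 and 55.1 CPM in WT and 20.7, 18.4, 23.9 and 18.8 CPM in R6/2 hearts (log2 fold change -1.88, standard error 0.170, adjusted p = 0.00559 from edgeR). Metrn, which encodes meteorin, Uck2, a pyrimidine salvage kinase, and Rrp12, a ribosome biogenesis factor, fell by 1.23, 1.19 and 0.96 on the log2 scale (adjusted p of 0.00678, 0.0101 and 0.0103 from edgeR). Armh4, Zc3h6, Thbs2 and S100a4 rose by 1.26, 1.34, 1.53 and 1.26 on the log2 scale, and Mdga1, Leo1 and Dtx3l fell by 1.26, 1.09 and 0.63, each without overlap (adjusted p between 0.00559 and 0.0108 from edgeR). Tspan10, a tetraspanin, was at 0.957, 1.43, 1.19 and 0.441 CPM in WT and 0.0230, 0.0872, 0.0519 and 0.0298 CPM in R6/2 hearts, where it rested on few counts and passed the count filter through the WT hearts, so no test is given. Gm12695 had 0 counts in all 4 WT libraries and 1.17, 1.0, 0.883 and 1.38 CPM in R6/2 hearts, at least 63.4-fold higher, with the WT level set at 3 counts over the group. Htt, the mouse gene of huntingtin, was at 27.0, 29.3, 25.8 and 21.7 CPM in WT and 21.5, 20.6, 19.8 and 20.5 CPM in R6/2 hearts, lower in each R6/2 heart but under the fold limit (log2 fold change -0.33, adjusted p = 0.0780 from edgeR). Hap1, which encodes a huntingtin-associated transport protein, rose from 2.93 ± 0.354 to 6.16 ± 1.34 CPM (log2 fold change 1.07, adjusted p = 0.0228 from edgeR). Of 197 called genes that could be named here, 117 stayed called under each omission of a single library.

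To ask whether these differences were already present before symptoms, the R6/2 effect at 15 weeks was compared with that at 4 weeks, with 4 hearts in each of 4 groups. Each 4-week group held 2 hearts with Xist and 2 with Y-linked transcripts, while all 8 hearts at 15 weeks held the latter. At 4 weeks edgeR called 0 genes, with 556 at an unadjusted p under 0.05. The difference between the 2 effects was called for 86 of 16339 genes, 0.526%, with 45 more positive and 41 more negative at 15 weeks. The heat shock list held 5 of them, Dnajb1, Dnaja1, Hsp90aa1, Hspa1a and Hspa1b, and without WT mice 1 and 2 the difference stayed called for Hspa1a and Hspa1b but not for the other 3 (adjusted p of 0.106, 0.133 and 0.115). The median log2 fold change of the list was 0.15 at 4 weeks and -0.38 at 15 weeks. Dnajb1 was 0.54 at 4 weeks, and its effect at 15 weeks was lower by 1.49 on the log2 scale (standard error 0.237, adjusted p = 0.0310 from edgeR). Hsp90aa1 stood at 0.42 at 4 weeks, with a difference of -1.70 (adjusted p = 0.0585 from edgeR).
Cited2 had the smallest adjusted p, with a log2 fold change of -0.33 at 4 weeks and a difference of 1.74 (standard error 0.212, adjusted p = 0.0114 from edgeR). Bmp10, Uck2, Rrp12 and Mlxipl differed by -1.64, -1.34, -1.22 and -1.26 (adjusted p of 0.0136, 0.0136, 0.0136 and 0.0310 from edgeR), and each was between 0.15 and 0.26 at 4 weeks. Tmem164, Sgce and Vasn completed the leading positive differences, at 1.23, 0.83 and 0.82. Txnip, Ccl11, Serpine2, Pik3ip1 and Tgfbr3 were more positive at 15 weeks, by 2.21, 1.70, 1.12, 1.06 and 0.89, and Hcn2 and Tnfrsf12a more negative, at -2.05 and -1.78. Without WT mice 1 and 2 the difference stayed called for Cited2, Bmp10, Uck2, Rrp12, Mlxipl, Tmem164, Sgce and Ccl11. It was not called for Vasn, Txnip, Serpine2, Pik3ip1, Tgfbr3, Hcn2 or Tnfrsf12a (adjusted p of 0.106 to 0.140 from edgeR). For the clock the difference was called in 0 of 26 genes, with 14 at an unadjusted p under 0.05 and medians of 0.09 and 0.64, and for Arntl it was -2.20 (adjusted p = 0.252 from edgeR). Without WT mice 1 and 2 at 15 weeks the difference was called for 17 genes, 13 of them among the 86, and DESeq2 called 799.

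**Figure D5:**
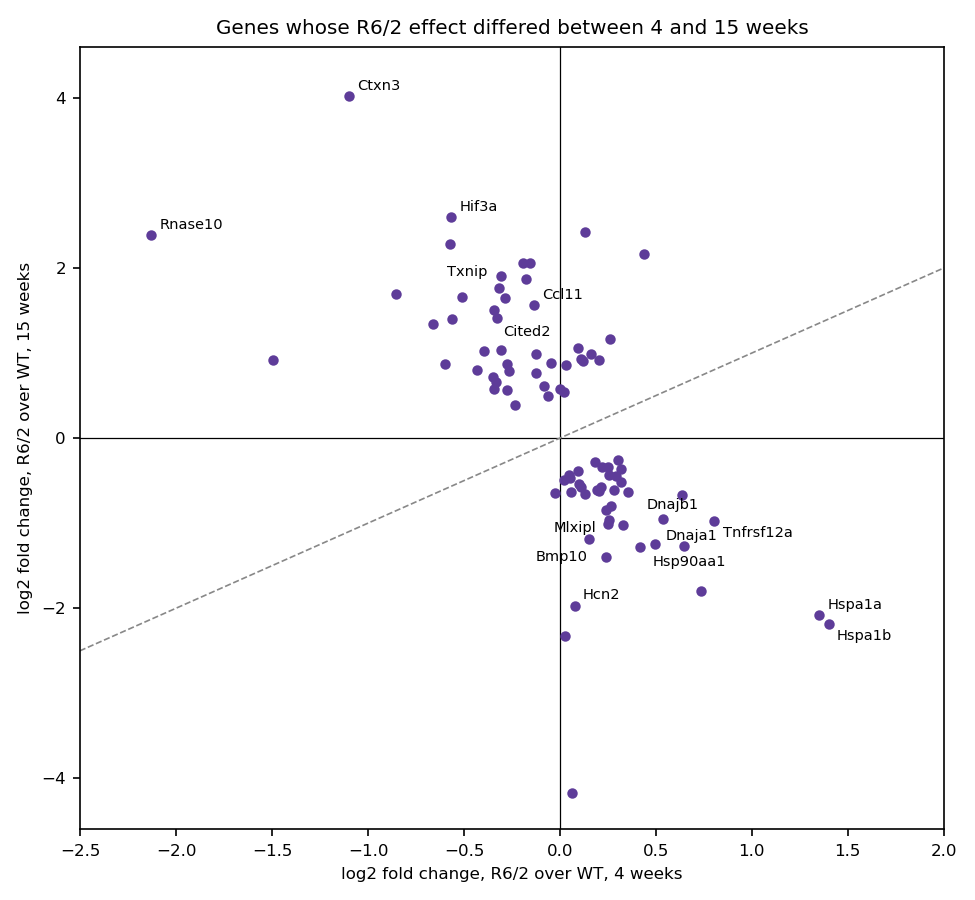
Log2 fold change of R6/2 over WT hearts at 4 weeks (horizontal) and 15 weeks (vertical) for the 86 genes whose effects differed, with the dashed line marking equal effects. Genes were chosen by that difference, so their distance from the line is a description, and Cited2 and Txnip lie above 0 and Hsp90aa1, Hcn2 and Bmp10 below 0 at 15 weeks. The labels Ctxn3, Rnase10 and Hif3a were added after their values were seen.

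Against the effect in end-stage HdhQ150 hearts at 22 months, with 4 HdhQ150 and 3 WT hearts, the R6/2 effect differed for 25 of 16563 genes, 0.151%, of which 3, named after their values were seen, were the Y-linked genes Ddx3y, Eif2s3y and Uty. Those genes mark a difference in sex, since all 4 HdhQ150 hearts held Xist at 109.6 to 134 CPM, here over the library total without TMM scaling, and WT mouse 28 at 103, while WT mice 26 and 27 held Y-linked transcripts at 87.7 and 99.9 on that scale, against the headings of 4 of these 7 mice. With WT mouse 28 alone sharing the sex of the HdhQ150 hearts, sex and genotype cannot be told apart at 22 months. Cited2 rose in R6/2 hearts and had a log2 fold change of 0.24 in HdhQ150 hearts, a difference of 1.18 (adjusted p = 0.0415 from edgeR). Ephx1, Serpine2, Cxcl14, Fabp4 and Adh1 were also more positive in R6/2 hearts, by 1.22, 1.23, 2.82, 1.0 and 1.26 on the log2 scale. Arntl was -0.07 in HdhQ150 hearts, and the difference was -2.49 (adjusted p = 0.0943 from edgeR). Without WT mice 1 and 2 the difference stayed called for Ephx1 (adjusted p = 0.0850 from edgeR). It was not called for Cited2, Serpine2, Cxcl14, Fabp4, Adh1 or Arntl (adjusted p of 0.128 to 0.340 from edgeR). Aplnr, Apln and Acta1 had values of -1.11, -1.28 and -3.19 in HdhQ150 hearts, and for them no difference between the models was called. Hap1 and Ifitm1 stood at 0.81 and 1.96. The ages differ and the groups share no libraries. The count moved in both directions. It was 10 without WT mice 1 and 2, of which 2 were among the 25, and 0 without R6/2 mouse 7 or 8, WT mouse 26 or 27 or HdhQ150 mouse 32. It was 1238 without WT mouse 3, 2689 without WT mouse 4, 671 without HdhQ150 mouse 29, 64 without WT mouse 28 and 2259 with DESeq2.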

How the data were processed

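Whole hearts of 4 R6/2 and 4 WT mice at 15 weeks were sequenced as paired-end reads by the authors, who aligned them with OSA in Omicsoft to mouse genome version B37. The deposited gene table holds estimated counts for 37620 Ensembl identifiers, of which 70.9% of the values above 0 were whole within 1e-09, and a second deposited table holds FPKM. The version of the gene annotation is not given in the sources used here. Libraries were assigned to groups by the age and genotype in the column headings, because the mouse numbers there are in no sample label, and p-values measure the spread between these mice. The members and gene lists were chosen with earlier results of these data known.

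Estimated counts were rounded, filtered with filterByExpr, scaled by TMM and tested by quasi-likelihood in edgeR 4.0.16 (R 4.3.3). Calls needed a change of 1.3 times or more and, after Benjamini-Hochberg adjustment, a p below 0.1, and the standard error was taken as the absolute log2 fold change over the square root of F. Symbols were matched for 32897 identifiers, and those without one held 0.759% of the counts. Differences between effects were tested as interactions in fits of 4 groups. The alternatives were DESeq2 1.42.0, limma 3.58.1 on log2(FPKM + 1) or log2(FPKM + 0.1), other filters and scalings, marker covariates and omission of libraries, and the method was tested on simulated data. No library was dropped or imputed other than where stated.

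The named genes were, in each direction, the 15 calls of smallest adjusted p without overlap and with a symbol, the genes the study assayed singly, list members and, for interactions, the 5 genes with the smallest adjusted p in each direction. Some of these genes are not reported here.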

Additional observations from a re-analysis of the deposited data

Results flagged for a closer look

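Among 292 groups of 4 hearts, 2 for each of 146 genes, 1 heart stood apart in 19 by the Dixon ratio (its gap to the nearest heart over the whole range), and chance marks about 1 in 20 groups. R6/2 mouse 5 was highest in Hlf (53.5 CPM, nearest 35.5). R6/2 mouse 6 was highest in Clock (24.0 CPM, nearest 19.8). R6/2 mouse 7 was lowest in Cry1 (8.10 CPM, nearest 11.5), Hsp90aa1 (87.9 CPM, nearest 103) and Mlxipl (15.2 CPM, nearest 20.1). R6/2 mouse 8 was highest in Col5a3 (30.8 CPM, nearest 24.0), Cpt1a (84.5 CPM, nearest 59.0) and Lox (10.4 CPM, nearest 3.56) and lowest in Dcn (563 CPM, nearest 688), Hsf1 (29.1 CPM, nearest 33.8), Stip1 (59.7 CPM, nearest 78.0) and Trim63 (116 CPM, nearest 153). WT mouse 3 was highest in Hspa1a (51.4 CPM, nearest 17.5) and Ppara (21.2 CPM, nearest 5.76) and lowest in S100a4 (3.78 CPM, nearest 4.81). WT mouse 4 was highest in Ephx1 (43.7 CPM, nearest 33.7), Fbln5 (29.6 CPM, nearest 24.1) and Foxc1 (4.15 CPM, nearest 3.20) and lowest in Bcl6 (24.1 CPM, nearest 30.5). R6/2 mouse 8 carried the most airway transcripts, and their part in these values was not tested. Without WT mouse 3 the log2 fold change was -1.32 for Hspa1a and -0.71 for Ppara.

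The R6/2 effect at 15 weeks differed from the effect at 4 weeks in a test of the difference itself (edgeR, called as above) for 25 of the genes described. On the log2 scale it was more positive at 15 weeks for Ccl11 (1.70), Cited2 (1.74), Dixdc1 (2.17), Fbln5 (0.71), Foxc1 (0.90), Fzd8 (0.96), Pik3ip1 (1.06), Serpine2 (1.12), Serping1 (0.82), Sgce (0.83), Tgfbr3 (0.89), Tmem164 (1.23), Txnip (2.21), Vasn (0.82) and Zc3h6 (2.00), and more negative for Bmp10 (-1.64), Dnaja1 (-1.74), Dnajb1 (-1.49), Hcn2 (-2.05), Hsp90aa1 (-1.70), Hspa1a (-3.43), Mlxipl (-1.26), Rrp12 (-1.22), Tnfrsf12a (-1.78) and Uck2 (-1.34). Of these 25, only Bmp10, Ccl11, Cited2, Hspa1a, Mlxipl, Rrp12, Sgce, Tmem164 and Uck2 stayed called without WT mice 1 and 2. The R6/2 effect differed from the HdhQ150 effect at 22 months for 7 of the genes described, more positive in R6/2 hearts for Adh1 (1.26), Cited2 (1.18), Cxcl14 (2.82), Ephx1 (1.22), Fabp4 (1.0) and Serpine2 (1.23) and more negative for Arntl (-2.49). Of these 7, Ephx1 alone stayed called for that difference without WT mice 1 and 2.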

How the results depend on the processing

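R6/2 against WT hearts at 15 weeks gave 2205 calls. The count was 1073 without WT mice 1 and 2, 3395 with DESeq2, 821 at an adjusted p under 0.05, 3588 with all libraries in 1 fit, 987 and 1189 with limma on log2(FPKM + 1) and log2(FPKM + 0.1), and 216 with the airway covariate. It stayed within 1.5 times under RLE size factors, no filter, a 1 CPM filter, no fold limit, robust dispersion and the thymocyte covariate. Leaving out single libraries gave 659 calls, when R6/2 mouse 5 was absent, to 3376, when WT mouse 4 was absent, and the cause was not tested. Higher genes made up 54.8% of calls, against 46.6% without mice 1 and 2, 77.3% with the airway covariate and 48.7% with DESeq2. The difference from the 4-week effect, 86 genes, became 17 without mice 1 and 2, 799 with DESeq2 and 44 without a filter, and 13 to 516 without single libraries. The difference from HdhQ150 hearts, 25 genes, became 10, 2259 and 8 in that order, and 0 to 2689 without single libraries.

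Of 116 called genes described here, each kept its direction in every alternative that tested it. The call was kept by 108 without WT mice 1 and 2, 116 with DESeq2, 112 with the thymocyte covariate, 68 with the airway covariate and 104 to 116 when single libraries were left out. The column headings carry an L code whose meaning is not given. It could not be fitted, since the 8 libraries held 7 such codes. No paired analysis was possible because the mouse numbers in the column headings are in no sample label. Low transcripts such as Tspan10 rest on few counts in R6/2 hearts.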
